A study of Drosophila melanogaster with 12 samples.

Results

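Transcripts of 6 neuropeptide precursor genes, Pdf, Mip, AstC, CCHa2, Akh and Nplp3, were followed through 2 days in heads of flies with a mutant clock gene. The genes were taken by their symbol in the array's annotation, which gave 1 probe set to each, 6 of the 13966 probe sets tested. The RNA on all 12 arrays came from heads of adult Drosophila melanogaster of the genotype y w; tim01, where tim01 is a loss-of-function allele of timeless. Every array shares this genotype, and flies with a working timeless gene were not analysed here. Before sampling, the flies were kept for 3 days in alternating light and dark, 12 h each. Pools of about 100 to 200 heads were then collected every 4 h, first over a light-dark day (LD, ZT2 to ZT22, counted in hours from lights-on) and then over the day without light that came after it (DD, CT2 to CT22). The groups of 3 arrays were the DD subjective day (CT2, CT6, CT10), the DD subjective night (CT14, CT18, CT22), the LD light phase (ZT2, ZT6, ZT10) and the LD dark phase (ZT14, ZT18, ZT22). The age and sex of the flies were not given in the sources used here.

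Neuropeptides are cut from longer precursor proteins, often amidated at the end, and released from dense core vesicles to act on receptors of other cells. In flies, Pdf encodes the pigment-dispersing factor, which clock neurons of the brain release to keep one another in step. Loss of timeless stops the clock's own feedback loop, so that a day-night pattern in these heads is one seen without that loop. Mip encodes myoinhibitory peptides, and AstC encodes allatostatin C, an inhibitory peptide of neurons and of gut endocrine cells. CCHa2 encodes a nutrient-dependent peptide of gut and fat body that acts on insulin-producing neurons. Akh encodes the adipokinetic hormone of the corpora cardiaca, which mobilises stored fat and sugar, and Nplp3 a neuropeptide-like precursor.

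Values are log2 RMA signals, for which 1 unit is a doubling, and each time point had 1 array. Each error thus reflects how far the hours within a phase lay apart, and the small number of arrays limits the precision. DD always followed LD, so the light regime and the day of sampling cannot be told apart. A fall in the number of peptide cells and a fall in RNA per cell cannot be told apart in whole heads either. Array medians lay between 4.10 and 4.14. Transcripts of other body parts stood high on the ZT2, ZT18 and CT2 arrays: the mean of 25 male reproductive tract genes, relative to each gene's own mean, was 0.71, 0.25 and 0.40 there, against -0.19 to -0.05 on the other 9. The mean of 35 gut enzyme genes was 0.64, 0.025 and 0.36 there, against -0.18 to 0.014 on the other 9. Of the gut and male tract lists, the 2 genes highest at ZT2 relative to their mean were read singly. The gut protease gene alphaTry read 6.50 at ZT2, 4.70 at ZT18 and 5.44 at CT2, and 3.67 to 4.21 elsewhere. Jon99Fi of the gut list read 4.55, 1.87 and 3.05 there, but 2.04 at ZT10 and 3.35 at CT6, so ZT18 was not high for it. The accessory gland gene Mst57Da read 7.26, 6.01 and 6.50, against 3.83 to 4.29. Acp95EF of the male tract list read 5.68, 4.985 and 5.07, against 3.02 to 3.70. The mean of 11 neuron markers, on the same scale, ran from -0.13 at ZT2 to 0.13 at CT14, and single markers were not read here. The difference between the 3' and 5' probe sets of the control transcript eIF-4a, a measure of RNA quality, was 2.80 ± 0.16 in DD and 3.15 ± 0.17 in LD (SD, n = 6 arrays each).

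**Figure D1:**
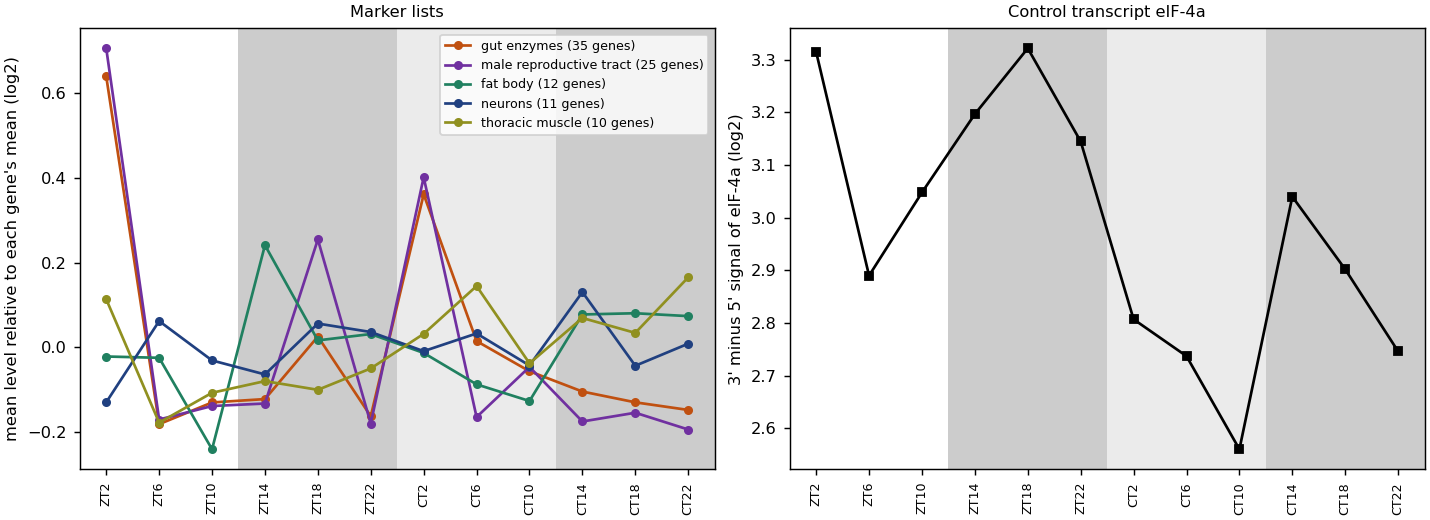
Left, mean log2 level of 5 marker lists on the 12 arrays, relative to each gene's mean. Right, the log2 difference between the 3' and 5' control probe sets of eIF-4a. Gut and male tract genes peak at ZT2 and CT2, and the eIF-4a difference ran from 2.56 to 3.04 in DD and from 2.89 to 3.32 in LD.

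Within the DD day, 4 of the 6 genes had subjective day and subjective night values that did not overlap. Pdf and Mip were higher in the subjective day, CCHa2 and Nplp3 lower. Of all probe sets, 10.2% had groups that did not overlap in this comparison. None of the 6 passed an adjusted p of 0.05 with limma over all probe sets (0 of 6, 4 of 6 with an unadjusted p under 0.05). The threshold was passed by 0.0644% of all probe sets, 0.0573% higher and 0.00716% lower in the subjective day, and an unadjusted p under 0.05 by 5.84%. The 6 genes were chosen with earlier results of these arrays known, so the count is a description of them.

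**Figure D2:**
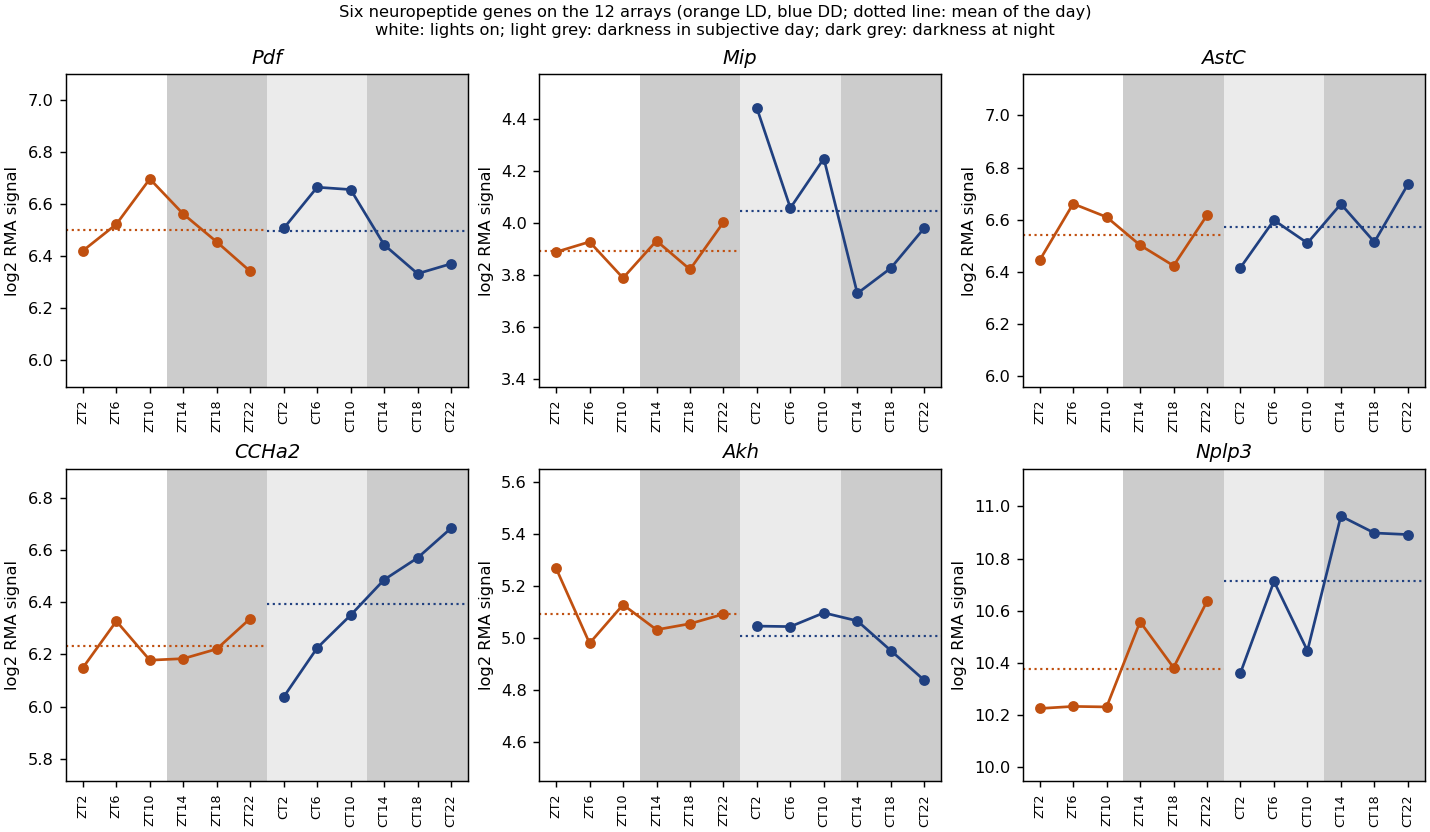
Log2 RMA signal of the 6 genes on the 12 arrays in time order, 1 point per array, with LD in orange and DD in blue. Dotted lines are the means of each day, and every panel spans 1.2 log2 units. CCHa2 climbs at every step of the DD day, Nplp3 is lowest in the LD light phase and highest in the DD subjective night, and Mip is highest at CT2.

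The circadian transmitter gene Pdf read 6.42, 6.52, 6.70, 6.56, 6.45 and 6.34 from ZT2 to ZT22. It read 6.51, 6.66, 6.66, 6.44, 6.33 and 6.37 from CT2 to CT22. The highest values of each day stood in the middle or late (subjective) day and the lowest at CT18 and at ZT22. In DD it averaged 6.61 ± 0.089 in the subjective day and 6.38 ± 0.056 in the subjective night (SD, n = 3 arrays each). The difference was 0.23 ± 0.083 (SE), or 1.17-fold, and did not pass (limma, adjusted p = 0.77). In LD the light phase averaged 6.55 ± 0.14 and the dark phase 6.45 ± 0.11, which overlapped, with a difference of 0.094 ± 0.083 (adjusted p = 0.945).

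A 24 h cosine fitted to Pdf had an amplitude (mean to peak) of 0.18 with a peak at hour 7.39 in DD, and of 0.15 with a peak at hour 10.5 in LD. Neither rhythm passed the moderated F test of limma (adjusted p = 0.9995 in DD and 0.704 in LD), which 0.00716% of all probe sets passed in DD and 0.107% in LD. The DD mean of Pdf was 6.50 ± 0.14 and the LD mean 6.50 ± 0.12 (SD, n = 6 arrays each). Their difference was -0.0040 with a 95% interval from -0.13 to 0.12, so the 2 days lay close together for this gene.

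Mip, the gene of the myoinhibitory peptides, read 3.89, 3.93, 3.79, 3.93, 3.82 and 4.003 across the LD day (ZT2 to ZT22). Across the DD day (CT2 to CT22) it read 4.44, 4.06, 4.25, 3.73, 3.83 and 3.98. All 3 subjective day arrays of DD lay above the other 9 arrays, a split whose share over all probe sets was not counted. The probe set is dim, with a mean of 3.97 just under the array medians, where RMA compresses changes. In DD the mean was 4.25 ± 0.19 in the subjective day and 3.85 ± 0.13 in the subjective night (SD, n = 3 arrays each), a difference of 0.40 ± 0.096 (SE; 1.32-fold; limma, adjusted p = 0.286). At the day hours the mean of 4.25 ± 0.19 in DD stood beside 3.87 ± 0.072 in LD (SD, n = 3 arrays each), a difference of 0.38 ± 0.096 (limma, adjusted p = 0.116).

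The CT2 array, which was high in gut and male tract transcripts, held the highest Mip value. Without ZT2, ZT18 and CT2 the subjective day stood above the subjective night by 0.31 (limma, adjusted p = 0.8075) and above the LD light phase by 0.29 (adjusted p = 0.446). ZT2, with the highest gut and male tract levels of all, read 3.89 for Mip, within the range of the other LD arrays. Leaving out CT6 gave a difference of 0.48 between the DD subjective day and the LD light phase, which passed (limma, adjusted p = 0.0285).

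The day-night difference of Mip in DD exceeded that in LD by 0.45 ± 0.14 (limma, adjusted p = 0.924), and no probe set passed this test of the difference (0 of 13966, 727 or 5.21% with an unadjusted p under 0.05, as for 2 of the 6 genes). In LD the light phase minus the dark phase was -0.050 ± 0.096. The part of the gut and male tract transcripts in the Mip values was not tested beyond these fits.

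CCHa2 climbed at every step of the DD day. Its values were 6.04, 6.22, 6.35, 6.49, 6.57 and 6.69 from CT2 to CT22, after 6.15, 6.33, 6.18, 6.18, 6.22 and 6.34 from ZT2 to ZT22. The first DD value was the lowest of the 12 and the last the highest, 1.57-fold apart. An unbroken climb over the 6 arrays of DD was seen in 20 of the 13966 probe sets (0.143%), and over those of LD in 24 (0.172%). A straight line through the DD day rose by 0.76 ± 0.12 per 24 h (limma, adjusted p = 0.0715), in a test chosen after the values were seen that 0.00716% of probe sets passed.

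In DD the mean of CCHa2 was 6.20 ± 0.16 in the subjective day and 6.58 ± 0.099 in the subjective night (SD, n = 3 arrays each), 1.30-fold lower in the day (-0.38 ± 0.087 SE; limma, adjusted p = 0.255). With the eIF-4a difference as a covariate this value was -0.49 and passed (limma, adjusted p = 0.0464). Without ZT2, ZT18 and CT2 it was -0.29 (adjusted p = 0.8075). At the night hours the DD mean of 6.58 ± 0.099 lay above the LD mean of 6.25 ± 0.080 without overlap, by 0.33 ± 0.087. This did not pass (limma, adjusted p = 0.9975), and 10% of all probe sets had groups that did not overlap there and 0% passed.

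In the LD day itself, CCHa2 differed by -0.029 between the light and dark phases, with a 95% interval from -0.21 to 0.15. The day-night difference of DD minus that of LD was -0.35 ± 0.12 (limma, adjusted p = 0.935). The 12 fat body markers, genes of a tissue that also makes this peptide, had a mean level of -0.076 ± 0.058 in the subjective day and 0.077 ± 0.0034 in the subjective night (SD, n = 3 arrays each), without overlap. Of the 12 markers, 10 were lower in the subjective day, beside 6584 of all 13966 probe sets, and none passed. The part of these genes in the CCHa2 values was not tested. Over the 12 arrays, CCHa2 and the mean level of these markers had a Pearson r of 0.29, and all arrays share the head preparation.

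Nplp3 was lowest in the light phase of LD and highest in the subjective night of DD. The LD arrays, ZT2 first, gave 10.22, 10.23, 10.23, 10.56, 10.38 and 10.64. The DD arrays, CT2 first, gave 10.36, 10.71, 10.45, 10.96, 10.90 and 10.89. The 3 values of the light phase differed by less than 0.01, and every dark array of either day lay above them. The share of all probe sets with such a split was not counted. In DD the subjective day averaged 10.51 ± 0.18 and the subjective night 10.92 ± 0.039 (SD, n = 3 arrays each), 1.33-fold lower in the day (-0.41 ± 0.094 SE; limma, adjusted p = 0.251). Without CT6 it was -0.51 and passed (adjusted p = 0.0452), without CT2 it was -0.34 (adjusted p = 0.943), and without ZT2, ZT18 and CT2 it was -0.34 (adjusted p = 0.6855). In LD the light phase averaged 10.23 ± 0.0042 and the dark phase 10.52 ± 0.13, a difference of -0.30 ± 0.094 (limma, adjusted p = 0.47). Both pairs of groups were without overlap, as were 10.2% of probe sets in DD and 12.2% in LD. The difference of the 2 contrasts was -0.12 ± 0.13 (adjusted p = 0.965).

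Nplp3 was also higher in DD than in LD at each of the 6 clock hours, by 0.14 at hour 2, 0.48 at hour 6, 0.22 at hour 10, 0.41 at hour 14, 0.52 at hour 18 and 0.26 at hour 22. A higher DD value at all 6 hours was seen in 3.77% of probe sets, and a lower one in 3.26%. The mean was 10.71 ± 0.25 in DD and 10.38 ± 0.18 in LD (SD, n = 6 arrays each), a difference of 0.34 ± 0.066 (SE), or 1.26-fold. With limma it fell short of the threshold (adjusted p = 0.073), which 0.0215% of all probe sets passed, and ranked 20 of 13966 by p.

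That adjusted p lay near the threshold and changed sides with the processing, running from 0.0245 with clock hour as a block to 0.769 with the eIF-4a difference as a covariate. It was 0.0341 with the level of gut and male tract genes as a covariate, 0.0663 without ZT2, ZT18 and CT2, and 0.0419 without CT6, where the difference was 0.28. With the eIF-4a covariate the difference itself was 0.31. A straight line through all 12 arrays rose by 0.39 ± 0.068 per 24 h and passed (limma, adjusted p = 0.0135). This line was chosen after the values were seen, and 0.881% of probe sets passed it, 0.193% rising and 0.687% falling. The log2 of the summed signal of 10 thoracic muscle genes ran from 10.60 to 10.92 in DD and from 10.55 to 10.66 in LD. Their mean level, relative to each gene's mean, ran from -0.038 to 0.165 in DD and from -0.18 to 0.11 in LD. Of the 10, 8 were higher in DD with a median of 0.13, beside 8024 of all 13966 probe sets with a median of 0.014, and none passed. Over the 12 arrays this level and Nplp3 had a Pearson r of 0.56, and of 0.83 without ZT2, ZT18 and CT2. The part of these genes in the Nplp3 difference was not tested.

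The mean level of the 12 fat body markers was also lower by day in both regimes. It ran from -0.13 to -0.014 in the DD subjective day and from 0.073 to 0.080 in the subjective night. In LD it ran from -0.24 to -0.022 in the light phase and from 0.016 to 0.24 in the dark phase. Lower values by day were found for 10 of the 12 in DD and 11 of the 12 in LD, and no marker passed. Of all 13966 probe sets, 6584 were lower by day in DD and 7353 in LD. In limma's fit, 3 of the 12 markers in DD and 4 in LD had an unadjusted p under 0.05, beside 5.84% and 6.26% of all probe sets. Over the 12 arrays this level and Nplp3 had a Pearson r of 0.50, and the part of these genes in the day-night values of Nplp3 was not tested.

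**Figure D3:**
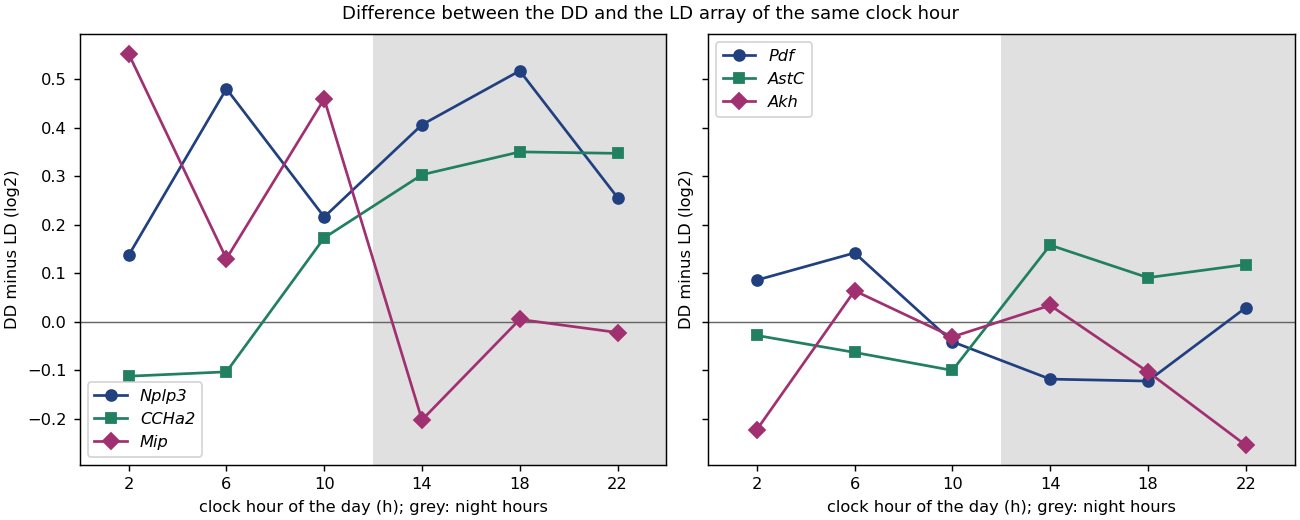
Log2 difference between the DD array and the LD array of the same clock hour, 1 point per hour. Nplp3 lies above 0 at all 6 hours, CCHa2 by 0.30 to 0.35 at the 3 night hours, and Mip by 0.13 to 0.55 at the 3 day hours, while AstC lies below 0 at the 3 day hours and above 0 at the 3 night hours, and Pdf and Akh have both signs in each.

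AstC, the allatostatin C gene, read 6.44, 6.66, 6.61, 6.50, 6.42 and 6.62 across the LD day. Across the DD day it read 6.42, 6.60, 6.51, 6.66, 6.51 and 6.74. Its 3 lowest values, 6.42 to 6.44, were those of ZT2, ZT18 and CT2, against 6.50 to 6.74 on the other 9 arrays. Such a split, with these 3 arrays lowest, was found in 0.888% of probe sets. AstC is made by gut endocrine cells as well as neurons, and it was low where gut enzymes were high (Pearson r = -0.64 over the 12 arrays and -0.32 without these 3). With the male reproductive tract level r was -0.745 over the 12 arrays and -0.71 without these 3. With the neuron markers it was 0.50 and 0.67. The part of these transcripts in the AstC values was not tested. The 11 measured peptide genes of gut endocrine cells, AstC, Mip and CCHa2 among them, had mean levels of -0.080, -0.094 and -0.020 on ZT2, ZT18 and CT2, against -0.054 to 0.062 on the other 9, so that CT2 lay within the range of the others.

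Between subjective day and subjective night AstC averaged 6.51 ± 0.091 and 6.64 ± 0.11 (SD, n = 3 arrays each), which overlapped (-0.13 ± 0.084 SE; limma, adjusted p = 0.858). The light and dark phases of LD averaged 6.57 ± 0.11 and 6.51 ± 0.098 (0.058 ± 0.084, adjusted p = 0.975). DD minus LD was 0.029, with a 95% interval from -0.096 to 0.15.

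The hormone gene Akh spanned 0.43 over the 12 arrays. Its LD values, ZT2 first, were 5.27, 4.98, 5.13, 5.03, 5.06 and 5.09. Its DD values, CT2 first, were 5.05, 5.04, 5.10, 5.07, 4.95 and 4.84. The highest value was that of ZT2, the array highest in gut and male tract transcripts, and the lowest that of CT22. In DD Akh averaged 5.06 ± 0.030 in the subjective day and 4.95 ± 0.11 in the subjective night, each over 3 arrays with its SD. In LD it averaged 5.13 ± 0.14 over the light phase and 5.06 ± 0.030 over the dark phase. These pairs overlapped, with differences of 0.11 ± 0.081 in DD (limma, adjusted p = 0.87) and 0.066 ± 0.081 in LD (adjusted p = 0.965). The LD difference was -0.0080 without ZT2, ZT18 and CT2. DD minus LD was -0.085, with a 95% interval from -0.21 to 0.035.

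**Figure D4:**
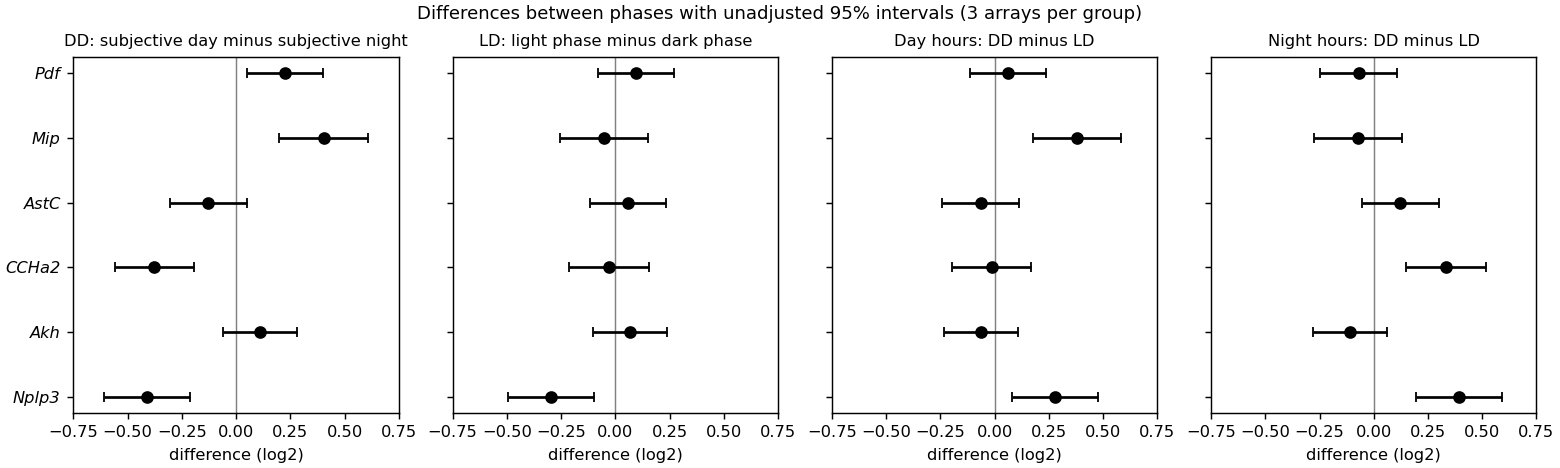
Differences between groups of 3 arrays for the 6 genes on the log2 scale, with unadjusted 95% intervals from limma. In DD the intervals of Pdf and Mip lie above 0 and those of CCHa2 and Nplp3 below it, and in LD only that of Nplp3 leaves 0. None of these differences passed after adjustment over all probe sets.

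In the other comparisons, too, none of the 6 genes passed. Between the light and dark phase of LD, 1 of 6 had an unadjusted p under 0.05, Nplp3, where 0.129% of all probe sets passed and 6.26% had such a p. At the day hours, DD against LD, it was 2 of 6, Mip and Nplp3, against 0.186% and 11.5% of all probe sets. Their groups did not overlap, which held for 15.5% of probe sets. At the night hours it was again 2 of 6, CCHa2 and Nplp3, against 0% and 4.87%. The comparisons share arrays with one another, so a gene that stands out in more than 1 of them does not do so independently. The 24 h rhythm had an unadjusted p under 0.05 for 3 of 6 genes in DD (Pdf, Mip and CCHa2) and for 1 in LD (Pdf), against 3.72% and 5.73% of probe sets.

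The 6 genes did not form 1 pattern. CCHa2 and Nplp3 ran together over the 12 arrays (Pearson r = 0.76), and CCHa2 ran against Akh (-0.66) and Pdf (-0.51). The arrays share the run of hours and the preparation, so these values describe these heads only. The fitted DD peak was at hour 4.13 for Mip, 7.39 for Pdf and 9.25 for Akh, and at hour 17.3 for Nplp3, 17.5 for CCHa2 and 17.6 for AstC. None of these rhythms passed the moderated F test of limma (adjusted p = 0.9995 for each). The AstC amplitude of 0.050 was smaller than the SE of its coefficients, 0.065, so its peak hour is not defined. CCHa2 read highest at CT22, away from its fitted peak. The fitted DD amplitudes ran from 0.050 for AstC to 0.27 for Mip, with a median of 0.21 over the 6 genes and 0.072 over all probe sets. In LD they ran from 0.036 for CCHa2 to 0.17 for Nplp3, with a median of 0.066 over the 6 genes and 0.073 over all. As the 6 genes were chosen with earlier results of these arrays known, these medians are a description of them.

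Of the other neuropeptide and peptide hormone precursors, 30 were measured and none passed any of the 8 comparisons with limma (0 of 30). Of them, 10 had a mean below the median of all values, such as amn at 1.80 and CCAP at 2.14. For these the lack of a call does not show an unchanged transcript. In DD, 2 of these 30 had an unadjusted p under 0.05 between subjective day and night, with a median difference of -0.019, beside 0.0063 over all probe sets. In LD it was 1 of 30 with a median of -0.037 between light and dark, beside -0.0060. Between the days it was 4 of 30, near the 11.1% of all probe sets, with a median of 0.017 beside 0.014. Those with the smallest p were Capa, the precursor of diuresis-regulating peptides, Ilp7, an insulin-like peptide, and ETH, which triggers ecdysis. Capa was at 0.27 ± 0.077 between LD light and dark (limma, adjusted p = 0.357). Its value between DD subjective day and night was 0.013 ± 0.077. ETH was at 0.28 ± 0.11 between DD subjective day and night (adjusted p = 0.77) and Ilp7 at 0.15 ± 0.069 (adjusted p = 0.829).

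**Figure D5:**
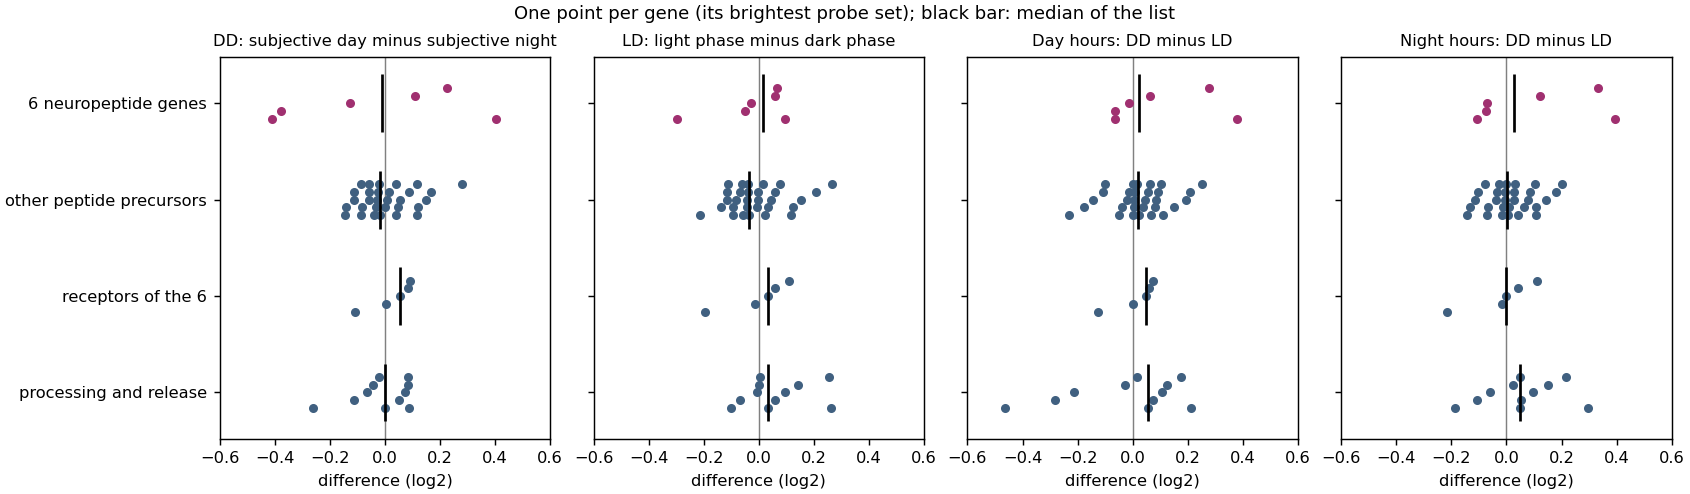
Log2 differences of single genes in 4 comparisons, 1 point per gene, for the 6 neuropeptide genes, 30 other peptide precursors, 5 receptors and 11 genes of peptide processing and release. Black bars are medians. In DD the 6 genes spread from -0.41 to 0.40, the other precursors from -0.15 to 0.28. The 6 genes were chosen with earlier results of these arrays known, so these spreads are a description only. Of the 30 other precursors, 10 had a mean below the median of all values, beside 1 of the 6.

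Of 6 listed receptors of these peptides 5 were measured, each read by its probe set of highest mean, and none passed any comparison (0 of 5). SPR and CCHa2-R had 2 probe sets each, and the dimmer ones were not read. Pdfr, the receptor of pigment-dispersing factor, averaged 4.17 on the 12 arrays, with a highest value of 4.32. SPR, which binds myoinhibitory peptides and the sex peptide, lay between 4.16 and 4.42, and the CCHamide-2 receptor gene CCHa2-R between 4.87 and 5.22. The allatostatin C receptor gene AstC-R1 lay between 3.19 and 3.49. The adipokinetic hormone receptor gene AkhR ran from 2.60 to 3.18 and was the only one with an unadjusted p under 0.05 between the days, at -0.17 ± 0.068 for DD minus LD (limma, adjusted p = 0.35). AstC-R1 and AkhR are dim, below the array medians.

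Among 11 genes of peptide processing and release, 5 had an unadjusted p under 0.05 between DD and LD, beside 11.1% of all probe sets, and none passed (0 of 11). The precursor-cleaving convertase gene amon averaged lower in DD by 0.33 on the log2 scale (-0.33 ± 0.086 SE; limma, adjusted p = 0.169), and at the day hours by 0.46 (-0.46 ± 0.12, adjusted p = 0.132). It read 4.72, 4.62, 4.32, 4.72, 4.26 and 4.74 from CT2 to CT22, after 5.08, 5.11, 4.86, 4.74, 4.78 and 4.76 from ZT2 to ZT22, so that the lowest LD value and the highest DD value were both 4.74. Pal1, which completes peptide amidation, was at -0.19 ± 0.054 (adjusted p = 0.182), and nSyb, a synaptic vesicle protein gene, at 0.21 ± 0.064 (adjusted p = 0.212). Pal1 is dim, with a mean of 3.96, below the array medians. Of 7 genes of adipokinetic hormone signalling and energy stores, the lipid droplet gene Lsd-1 alone passed, 0.54 ± 0.10 higher in the LD light phase than in the dark phase (limma, adjusted p = 0.0443). There 0.129% of all probe sets passed. Lsd-1 was also lower at the day hours in DD than in LD (-0.52 ± 0.10, adjusted p = 0.0499), where 0.186% passed. In DD its subjective day lay below its subjective night (-0.27 ± 0.10, adjusted p = 0.77). Its lowest values were 7.44 at ZT18 and 7.55 at CT2. For single genes, alternative settings were read for the 6 neuropeptide genes only. For tobi of the same list, the difference at the day hours was -0.46 ± 0.19 (limma, adjusted p = 0.366).

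The genes whose values followed each neuropeptide gene most closely over the 12 arrays were taken by Pearson correlation among 6200 probe sets with 1 symbol and a mean above the median of all values. They were Rdh, Gyg and CG13159 for Pdf (r from 0.86 to 0.88), CG1116, mtt and side-VII for Mip (0.88 to 0.92), and CG7632, ebd1 and ATPsynB for CCHa2 (0.86 to 0.89). For AstC they were CG14767, par-1 and l(3)L1231 (0.88 to 0.90), for Akh Cyp6a16, CG5033 and CG7182 (0.88 to 0.91), and for Nplp3 Acbp4, CG1146 and AQP (0.90 to 0.93). Without ZT2, ZT18 and CT2, only CG7632 for CCHa2, CG14767 for AstC and CG1146 for Nplp3 were again among the nearest 3. Picking the top 3 of 6200 probe sets over 12 arrays gives high values of r by itself. These lists therefore describe the arrays and do not show that the genes are regulated together.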

How the data were processed

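The authors deposited log2 signals made with RMA, per the submitters' processing notes; the program and version are not given here. RMA corrects the background, normalizes between arrays and summarises the probes of a set. After it a shift shared by most transcripts is no longer visible. Values ran from 1.52 to 13.74. Of 14010 probe sets, 44 controls were left out. The platform annotation gave 1 symbol to 12443, several to 327 and none to 1196. Genome positions and precursor sequences were not used here.

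With R 4.3.3, limma 3.58.1 was fitted to all 12 arrays (lmFit, then eBayes with an intensity trend), with Benjamini-Hochberg adjustment over 13966 probe sets and a threshold of 0.05. One model had a mean per group (8 residual degrees of freedom), the other a mean, cosine and sine per day (6). SEs are limma's. Steps were tested on simulated data. The 6 genes and all lists were chosen with earlier results of these data known. Named genes were the 6, the 3 nearest patterns of each, all measured receptors, any listed gene that passed, and 2 gut and 2 male tract markers. The genes with the smallest p (up to 3) were named for the other precursors, processing and release, and adipokinetic hormone lists. For the gut endocrine and marker lists they were not all named. Lists were other peptide precursors, receptors, processing and release, adipokinetic hormone signalling, gut endocrine peptides, and markers of gut, male tract, fat body, neurons and thoracic muscle. No label says that arrays come from separate cultures or that any hour was sampled more than once.
Alternatives were no intensity trend, median centring, only the arrays of the groups compared, robust moderation, array weights, renewed quantile normalization, a filter on dim probe sets, clock hour as a block, marker and eIF-4a covariates, arrays left out and, chosen after the values were seen, straight lines over time.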

Additional observations from a re-analysis of the deposited data

How the results depend on the processing

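None of the 6 genes passed any of the 8 comparisons with limma in the main setting. Under some alternatives 1 gene passed at a time, which was CCHa2, Mip or Nplp3 depending on the comparison and setting. For the subjective day against night in DD it was CCHa2 (1 gene, -0.49) with the eIF-4a covariate. Nplp3 passed the comparison of the DD with the LD day (1 gene) with robust moderation, array weights, renewed quantile normalization, dim probe sets left out (5 genes in the fit), clock hour as a replicate block (0.34, adjusted p = 0.0245), the gut and male tract covariate and a slope over all 12 arrays. Leaving out each array in turn, the count ran from 0 to 1 for the subjective day against night in DD, for the day hours of DD against LD and for the DD against the LD day, the 1 gene each time without CT6: Nplp3 (-0.51, adjusted p = 0.0452), Mip (0.48) and Nplp3 (0.28, adjusted p = 0.0419). The probe sets passing over the whole table then ran from 1 to 168 for the day hours and from 0 to 95 for the days. The smallest values lie within the spread between arrays, and their signs depended on the setting.

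Of 804 differences of single genes under alternatives, 764 kept direction and side of the threshold, 29 changed sign, none of which had passed, and 11 newly passed; the cause was not tested. The 274 rhythm values, whose amplitudes have no sign, stayed short of the threshold. With the eIF-4a covariate the differences that changed sign were AstC in LD (-0.0046), Akh at day (0.11) and night hours (0.042) and AstC at night hours (-0.026). Between the days they were, with the same covariate, CCHa2 (-0.053), AstC (-0.13) and Akh (0.078). Without ZT2, ZT18 and CT2 they were Akh in LD (-0.0080), Nplp3 for DD minus LD contrasts (0.027), CCHa2 (0.035) and Akh (0.017) at day hours and AstC between the days (-0.0023). Renewed quantile normalization gave CCHa2 at day hours (0.0036) and Pdf between the days (0.010), and the gut and male tract covariate CCHa2 in LD (0.010). Leaving out 1 array, CCHa2 in LD ran from -0.084 to 0.016, Akh in LD from -0.0057 to 0.14, Akh for the difference of contrasts from -0.028 to 0.12, Pdf, CCHa2 and Akh at day hours from -0.00067 to 0.14, from -0.087 to 0.070 and from -0.14 to 0.0083, and Pdf and AstC between the days from -0.036 to 0.034 and from -0.0026 to 0.060. The clock hour block could not be fitted within a day. Deviations from the group means correlated between LD and DD arrays of the same hour at 0.27 to 0.45 by day and 0.031 to 0.11 at night. Each LD array was compared only with the 3 DD arrays of its own phase, and its own hour was the best of them. The highest value, 0.45, joined ZT2 and CT2, both high in gut and male tract transcripts. These values do not show that arrays share flies or a batch. Each gene had 1 probe set, so no other was tried.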
